A study of Mus musculus with 2 samples.

Results

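Tenocytes are the fibroblasts of tendon, and in this study they were the cells of digested hindlimb muscle that carried the tendon transcript Tnmd together with other tendon matrix transcripts. The muscle came from female C57Bl/6J mice aged 24 months. Muscle of the ATRA+agonist group received 3 injections of a mixture of ATRA (all-trans retinoic acid), CD3254, an agonist of RXRα, and BMS961, an agonist of RARγ. Muscle of the DMSO vehicle group received 3 injections of the solvent. Per the study's methods, mice recovered for 3 days after the last injection before muscle was taken. Each group was 1 single-cell RNA-Seq library in which the cells of 2 mice were pooled, so no spread between mice could be measured and no difference between the groups was tested. Intervals given after a level, a share or a ratio are 95% intervals unless they are said to be ranges under the alternatives. These 95% intervals cover the error of counting cells or unique molecular identifiers (UMIs, each standing for 1 captured RNA molecule) and nothing else. Brackets after the median of a gene list are not such intervals. They hold the lowest and highest value under other processing settings, called the alternatives.

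Members were chosen by their own transcript counts. A barcode was a tenocyte if it held 300 to 5000 genes, under 20% mitochondrial UMIs and under 0.25% UMIs of the beta-globin (Hbb-) genes, at least 1 UMI of Tnmd, at least 10 UMIs summed over the 6 gate genes Tnmd, Fmod, Thbs4, Comp, Chad and Kera, and at most 1 UMI summed over Pecam1, Cdh5, Ptprc and Pax7. By this rule 440 of the 14984 barcodes within the quality limits were tenocytes, 133 of 7467 with ATRA+agonist and 307 of 7517 with DMSO vehicle. The 6 gate genes and the 4 limited genes are therefore given as a description of the cells and not as findings.

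Tendon is a rope of collagen fibrils, built mainly of type I collagen, that carries the force of a muscle to bone. Tenocytes make and maintain these fibrils. The transcription factor scleraxis (Scx) marks the tendon lineage and binds short E-box sequences, Mkx encodes a second tendon transcription factor, and Tnmd encodes tenomodulin, a membrane glycoprotein of mature tenocytes. ATRA acts through nuclear retinoic acid receptors (RARs), which pair with retinoid X receptors (RXRs) on response elements made of repeats of a short sequence, and Rarb, which encodes RARβ, is a classic gene under the control of such an element.

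Promoter sequences are shown for the gene that defined the cells and for a gene of the retinoid pathway whose promoter holds such a response element. The first is the 250 bases before a start of Tnmd at chrX:133850758-133851007, of which the last bases lie inside the annotated span of the gene, and the second the 250 bases before a start of Rarb at chr14:16575477-16575726, a start that lies inside the annotated span of the gene. Both were read 5′ to 3′ on the strand of the gene, plus for Tnmd and minus for Rarb, from RefSeq on the GRCm38.p6 build, and capitals mark a motif match.
Tnmd: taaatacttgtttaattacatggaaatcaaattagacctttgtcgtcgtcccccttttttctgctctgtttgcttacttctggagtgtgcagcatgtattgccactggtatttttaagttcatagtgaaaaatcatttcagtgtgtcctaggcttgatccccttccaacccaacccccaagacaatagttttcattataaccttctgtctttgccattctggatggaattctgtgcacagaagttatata
Rarb: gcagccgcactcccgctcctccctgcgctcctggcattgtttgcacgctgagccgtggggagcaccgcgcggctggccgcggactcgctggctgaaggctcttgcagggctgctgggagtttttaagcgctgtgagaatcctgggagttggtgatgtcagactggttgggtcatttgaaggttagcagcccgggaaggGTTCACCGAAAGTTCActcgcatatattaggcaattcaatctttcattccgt
The Rarb sequence held 1 match to the direct repeat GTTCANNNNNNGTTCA, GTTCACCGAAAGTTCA, which began 52 bases before the start, at chr14:16575513-16575528. This repeat, searched on both strands, was found in 22 of 32851 promoter windows (0.0670%), and among the retinoid genes with an entry it was found in Rarb and Cyp26a1. The E-box CANNTG, which reads the same on both strands, was found in 66.2% of the same windows. It had 1 match each in the windows of Fmod, Chad and Thbs4, and no match in those of Kera and Tnmd. A match in such a window is a description of letters and not of binding.

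Several facts of the libraries bear on all that follows. The ATRA+agonist library held 10444 barcodes and 65197625 UMIs and the DMSO vehicle library 17394 barcodes and 109343486 UMIs, while the median cell within the limits held 4887 and 4959 UMIs. Tenocytes were deeper with ATRA+agonist, with a median of 7300 UMIs and 2620 genes against 5561 UMIs and 2242 genes with DMSO vehicle. Shares of tenocytes with a UMI of a gene are not corrected for this depth unless thinning is named. Summed over the cells, 1033639 and 1905474 UMIs stood behind the tenocyte levels. Globin RNA was more abundant with DMSO vehicle: the Hbb- limit alone removed 29 of 339 barcodes that passed the gate there and 3 of 139 with ATRA+agonist. The libraries shared 43 barcodes, 12 of them within the limits in both, and no shared barcode was a tenocyte in both.

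Tenocytes took a smaller share of the cells with ATRA+agonist. They were 1.78% (1.49 to 2.11, exact binomial interval) of cells with ATRA+agonist and 4.08% (3.65 to 4.56) with DMSO vehicle, a ratio of shares of 0.436 (0.357 to 0.533). Comparison gates set on other genes showed how far other classes shifted between the same libraries. Mesenchymal progenitors, gated on at least 2 UMIs of Pdgfra, were 12% and 13.5% of cells, a ratio of 0.887 (0.815 to 0.964). Endothelial cells, gated on Pecam1 and Cdh5, were 28.7% and 28.5%, a ratio of 1.01 (0.957 to 1.06). Immune cells, gated on at least 2 UMIs of Ptprc, took 11.8% with ATRA+agonist and 8.19% with DMSO vehicle, a ratio of 1.43 (1.30 to 1.58). Among cells without a UMI of Ptprc the tenocyte shares were 2.30% and 4.69%. With no quality limits the shares of all barcodes were 1.33% and 1.95%, a ratio of 0.683 (0.561 to 0.831). Fewer tenocytes in the muscle, and fewer released by digestion or kept by sorting, cannot be told apart in these data.

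**Figure D1:**
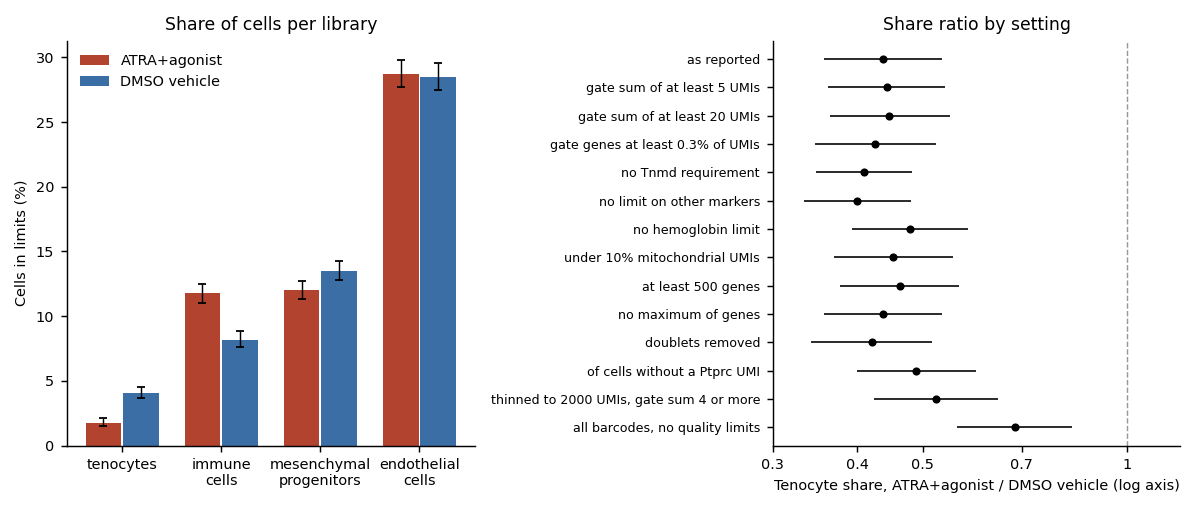
Left, share of cells within the quality limits (%, bars, with exact binomial 95% intervals) for tenocytes and 3 comparison gates in each library. Right, ratio of the tenocyte shares, ATRA+agonist over DMSO vehicle (log axis, points with 95% intervals), under each processing setting. The ratio lies between 0.40 and 0.683 under the alternatives, below 1 in each.

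The gate genes themselves described a well-marked population. Fmod, which encodes the collagen-binding proteoglycan fibromodulin (ENSMUSG00000041559), had at least 1 UMI in 100% of tenocytes of both libraries, at 6754 UMIs per 1000000 UMIs of the tenocytes (counts per 1000000, CPM) with ATRA+agonist and 6721 CPM with DMSO vehicle. Thbs4, a tendon thrombospondin, was present in 97.7% and 99.7% of cells at 7156 and 7673 CPM. Comp, the cartilage oligomeric matrix protein, was present in 73.7% and 71.3% of cells at 1596 and 1475 CPM. Chad, which encodes chondroadherin, was present in 61.7% and 55.4% of cells at 689 and 530 CPM, and Kera, which encodes keratocan, in 36.1% and 30.6% at 609 and 455 CPM. Most tenocytes carried nearly the whole set, with 5 or 6 of the gate genes in 62.4% of cells with ATRA+agonist and 58.3% with DMSO vehicle.

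Over all tenocytes, Tnmd was the gate gene whose level differed most between the libraries. Tnmd (ENSMUSG00000031250, GRCm38 chromosome X, 133850980 to 133865577, plus strand) was at 1185 CPM (1120 to 1253) with ATRA+agonist and 819 CPM (779 to 860) with DMSO vehicle, a log2 ratio of 0.53. Here and below the log2 ratio is that of ATRA+agonist over DMSO vehicle with 10 CPM added to both, which understates the ratio of scarce transcripts. The median tenocyte held 6 Tnmd UMIs with ATRA+agonist and 3 with DMSO vehicle, which is 8.87 and 5.90 per 10000 UMIs of the cell. A single Tnmd UMI was all that 10 cells (7.52%) with ATRA+agonist and 83 cells (27.0%) with DMSO vehicle had, so many more DMSO vehicle cells stood at the edge of the rule. The gate sum was further from its edge. Its median was 114 UMIs with ATRA+agonist and 88.0 with DMSO vehicle, 2 and 6 tenocytes had a sum of 10 to 14, and 15 and 13 cells with a Tnmd UMI had a sum below 10. As a share of the UMIs of a cell the gate genes had a median of 1.73% and 1.61%.

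**Figure D2:**
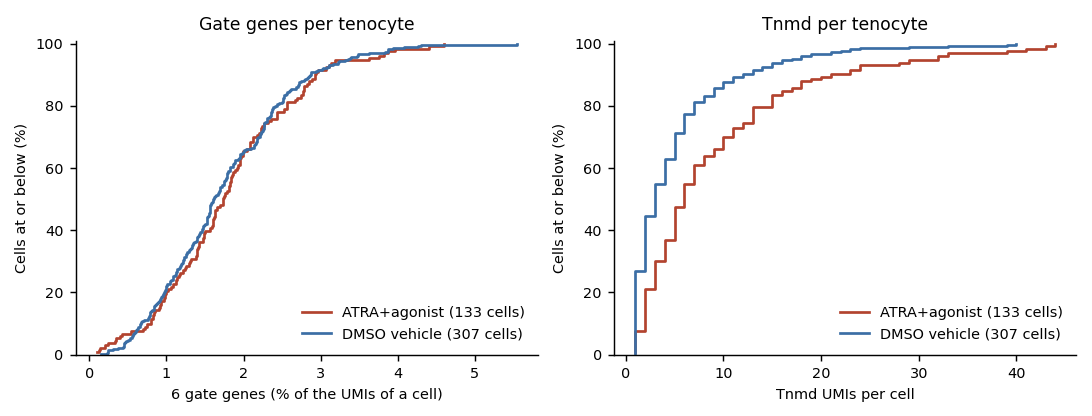
Cumulative percentage of tenocytes at or below a given share of UMIs in the 6 gate genes (left, % of the UMIs of a cell) and at or below a given number of Tnmd UMIs (right), for 133 ATRA+agonist and 307 DMSO vehicle cells. The curves of the gate share nearly overlie each other, with medians of 1.73% and 1.61%, while the Tnmd curve of ATRA+agonist lies to the right, with medians of 6 and 3 UMIs.

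Free tendon RNA in droplets was low. After each cell was thinned to 2000 UMIs, Thbs4 was found in 0.484% of endothelial cells with ATRA+agonist and 1.38% with DMSO vehicle, and Fmod in 0.215% and 0.663%. The unthinned medians of those cells were 3513 and 3706 UMIs. Immune cells had Fmod in 0 of 862 cells with ATRA+agonist, with an exact upper bound of 0.427%, and in 0.497% with DMSO vehicle. In tenocytes thinned in the same way Thbs4 was found in 96.9% and 98.6% and Fmod in 96.2% and 97.6%. The comparison gates required 0 Tnmd UMIs, so they give no background for Tnmd.

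Some transcripts that the rule did not use stood far higher in tenocytes than in the comparison gates. The 15 genes outside the gate that stood highest over the highest comparison gate, taken in the library where the difference was smaller, included transcription factors, matrix and secreted proteins of tendon. Since the cells were selected on counts from the same cells, these levels are a description of the gated cells. The genes were chosen for a high value in both libraries, so these values cannot show that the libraries are alike. Scx (ENSMUSG00000034161, chromosome 15, 76457452 to 76459458, plus strand) exceeded the highest comparison gate by 4.95 with ATRA+agonist and 4.48 with DMSO vehicle on the log2 scale, and Mkx by 4.24 and 4.82. Scx was found in 62.4% of tenocytes with ATRA+agonist and 52.4% with DMSO vehicle, and in 35.1% and 28.0% after thinning to 2000 UMIs. Kcnma1, which encodes the large-conductance calcium-activated potassium channel, exceeded it by 5.73 and 5.57. Among matrix genes, Col11a1 (5.0 and 4.94), Tnc, which encodes tenascin-C (5.23 and 4.48), Cilp2 (4.80 and 4.27) and Col12a1 (4.58 and 4.14) stood high over the gates. Secreted proteins included the axon guidance factor Sema3a (5.30 and 4.61), Angptl7 (4.55 and 4.94), Edil3 (4.42 and 3.89) and the Wnt antagonist Wif1 (4.90 and 3.61). Chodl, Ecrg4, Ptgis and Ccdc3 completed the group, at differences from 3.76 to 5.24. Between the libraries Ecrg4, a secreted peptide precursor, was at 633 and 331 CPM (a log2 ratio of 0.92), Sema3a at 704 and 454 CPM (0.62) and Cilp2 at 285 and 186 CPM (0.59), and Kcnma1 was at 1497 and 1827 CPM (-0.29). With cells thinned to 2000 UMIs the ratio was 0.20 for Sema3a and 0.30 for Cilp2.

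Across all transcripts the tenocytes of the 2 libraries were similar. Of 7130 genes with at least 50 UMIs over both libraries, 206 (2.89%) were at least 1.5-fold higher with ATRA+agonist and 341 (4.78%) at least 1.5-fold lower, and the median log2 ratio was -0.01. This fold is a rule of size, used in place of a test, and the words higher and lower below are used of genes past it. When, for each gene, the 5% of tenocytes in each library that held most of its UMIs were left out, the counts were 378 higher and 378 lower, so the excess of lower genes was no longer seen.

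**Figure D3:**
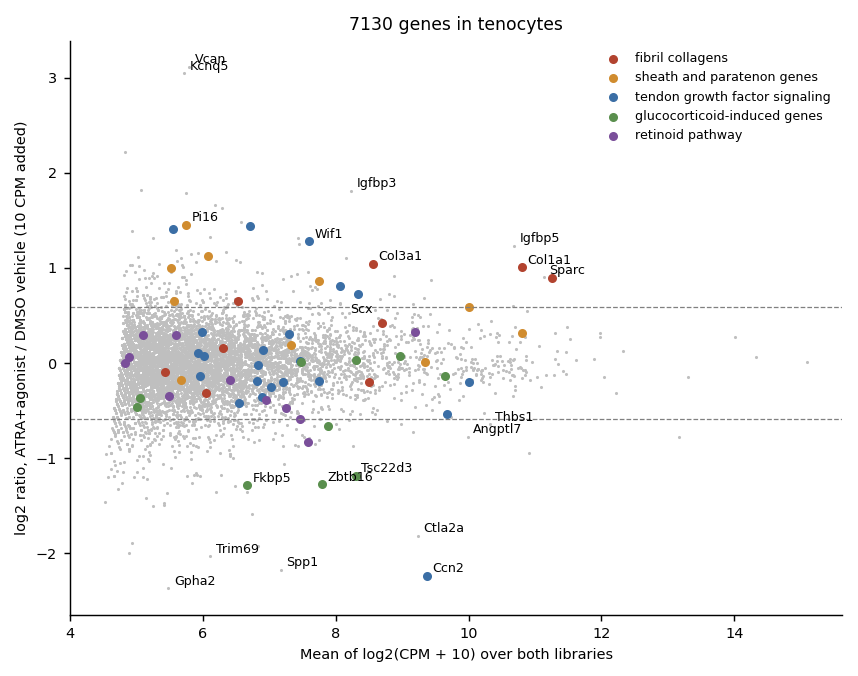
Each point is 1 of 7130 genes in tenocytes. The horizontal axis is the mean of log2(CPM + 10) over both libraries, and the vertical axis the log2 ratio of ATRA+agonist over DMSO vehicle with 10 CPM added. Most genes lie near 0 (median -0.01). Ccn2 lies far below, at -2.24, and Col1a1, Col1a2 and Sparc lie together above, at 0.89 to 1.01.

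Type I and type III collagen transcripts were about 2-fold higher in ATRA+agonist tenocytes. Of the 9 fibril collagen genes with at least 50 UMIs, 4 were higher, none was lower and the median log2 ratio was 0.42 (0.26 to 0.54 under the alternatives). Over all genes 2.89% were higher. Col1a1 (ENSMUSG00000001506, chromosome 11, 94936224 to 94953042, plus strand), the α1 chain of type I collagen, was at 2520 CPM (2424 to 2619) with ATRA+agonist and 1249 CPM (1199 to 1300) with DMSO vehicle. Its log2 ratio was 1.01 (raw ratio 0.93 to 1.09), and it had a UMI in 96.2% of cells against 87.3%. With cells thinned to 2000 UMIs the shares were 76.3% (68.1 to 83.3) and 67.2% (61.6 to 72.5). The second chain of the same collagen, Col1a2, was at 3321 and 1782 CPM, a log2 ratio of 0.89. Col3a1, which encodes type III collagen, was at 530 and 252 CPM (1.04) and was found in 45.9% and 21.8% of cells. Col5a1, a chain of the type V collagen that starts fibrils, was at 106 and 64.0 CPM (0.65), and Col5a2 at 470 and 348 CPM (0.42). The remaining chains did not follow: Col11a1 was at 327 and 377 CPM (-0.20) and Col24a1 at 49.3 and 64.0 CPM (-0.32). Col27a1 and Col2a1 had under 50 UMIs.

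These collagens were higher beyond tenocytes. In the mesenchymal progenitor gate 4 fibril collagen genes were higher as well, the median was 0.47, and the log2 ratios were 0.71 for Col1a1, 0.76 for Col1a2 and 0.89 for Col3a1. In tenocytes, without the 5% of cells that held most UMIs of the gene, the log2 ratio was 0.82 for Col1a1, 0.80 for Col1a2 and 1.45 for Col3a1. The median tenocyte held 9.35 Col1a1 UMIs per 10000 with ATRA+agonist and 6.43 with DMSO vehicle, and the upper quartile lay at 25.8 and 13.

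Among fibril-associated and other collagens, 4 of 14 were higher and 1 was lower, against 2.89% and 4.78% over all genes. Their median was 0.18 (0.11 to 0.26). Col6a1, a chain of the beaded type VI collagen around cells, was at 292 and 181 CPM (0.66), Col16a1 at 102 and 61.4 CPM (0.64) and Col15a1 at 33.9 and 11.5 CPM (1.03). Col14a1 was at 155 and 75.6 CPM (0.95), but 62.5% of its UMIs with ATRA+agonist lay in 5 cells and its log2 ratio was 0.37 without the leading cells and 0.03 with doublets removed. Col12a1, an abundant fibril-associated collagen of tendon, was at 906 and 866 CPM (0.06). Col22a1, found at the muscle-tendon junction, was lower, at 62.9 and 105 CPM (-0.66), yet it came from few cells: 3 tenocytes with ATRA+agonist and 12 with DMSO vehicle held at least 5 of its UMIs, and the ratio was 0.19 without the 5% of cells with the most UMIs and -1.23 without the 5% that held most UMIs of the gene.

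Small leucine-rich proteoglycans, which coat fibrils and limit their width, differed less. Of 9 genes 1 was higher and none was lower (2.89% and 4.78% over all genes), with a median of 0.02 (-0.11 to 0.06). Dcn, which encodes decorin, was at 18175 and 15000 CPM (0.28), Ogn, which encodes osteoglycin, at 3263 and 2511 CPM (0.38) and Prelp at 1544 and 1522 CPM (0.02). Aspn, which encodes asporin, was at 993 and 1436 CPM (-0.53), and Bgn, which encodes biglycan, at 805 and 1054 CPM (-0.38). Lum, which encodes lumican, was the gene past the fold, at 266 and 151 CPM (0.78), with 61.8% of its ATRA+agonist UMIs in 5 cells, and its ratio was below 0 under 4 alternatives (-0.35 to -0.04).

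The matrix glycoproteins were mixed, with 9 of 27 higher and 3 lower, against 2.89% and 4.78% over all genes. Their median was 0.32 (0.23 to 0.35). Sparc (ENSMUSG00000018593, chromosome 11, 55394500 to 55423183, minus strand), a collagen-binding protein, was at 3054 CPM (2949 to 3163) and 1629 CPM (1572 to 1687), a log2 ratio of 0.90, and at 0.61 without the leading cells. Igfbp5, an insulin-like growth factor binding protein (chromosome 1, 72857932 to 72874884, minus strand), was at 2520 and 1065 CPM (1.23) and at 1.31 without the leading cells. Its level was uneven between cells: 51.1% of tenocytes with ATRA+agonist and 37.5% with DMSO vehicle had a UMI, and 30.8% and 16% had at least 10. The related Igfbp6 was at 1990 and 1310 CPM (0.60). Mfap5, a microfibril protein, was at 407 and 184 CPM (1.11), and Dpt, which encodes dermatopontin, at 113 and 44.6 CPM (1.17).

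Lower among the glycoproteins were Angptl7, at 768 and 1321 CPM (-0.77, and -0.87 to -0.70 under the alternatives), Thbs1, which encodes thrombospondin 1, at 1010 and 1585 CPM (-0.64), and Postn. The Postn level of 41.6 and 107 CPM (-1.18) came from 4.51% and 6.51% of cells and its ratio reversed under 2 alternatives. Genes near equality included Tnc, at 486 and 491 CPM (-0.02), and Cilp, at 1435 and 1831 CPM (-0.35). Prg4, which encodes the lubricant lubricin, was at 1979 and 1585 CPM (0.32) in tenocytes, while its log2 ratio in the mesenchymal progenitor gate was -1.29. Vcan had the largest ratio of all named genes, at 154 and 8.92 CPM (3.11), but 93.7% of its UMIs with ATRA+agonist lay in 5 cells, and the ratio was 0.62 without the leading cells and 0.46 without the 5% of cells with the most UMIs.

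Newly made collagen is folded, trimmed and crosslinked before it bears load. Of 22 genes for collagen folding, trimming and crosslinking 3 were higher and none was lower, against 2.89% and 4.78% over all genes. Their median was 0.25 (0.12 to 0.31). The procollagen C-proteinase enhancers Pcolce, at 567 and 338 CPM (0.73), and Pcolce2, at 262 and 146 CPM (0.80, and 0.47 with cells thinned to 2000 UMIs), were higher, as was P3h4, at 70.6 and 41.5 CPM (0.65). Serpinh1, the collagen chaperone HSP47, was at 659 and 470 CPM (0.48), the crosslinking enzyme gene Lox at 682 and 475 CPM (0.51) and Ppib at 507 and 384 CPM (0.39). P4ha1, a prolyl hydroxylase subunit that stabilizes the triple helix, was at 310 and 454 CPM (-0.54).

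Among proteases and their inhibitors 3 of 12 were higher and 1 was lower, against 2.89% and 4.78% over all genes. Their median was 0.39 (0.15 to 0.46). The proteases Htra1, at 249 and 138 CPM (0.81), Mmp23, at 61.9 and 30.4 CPM (0.83, and 0.30 with cells thinned to 2000 UMIs), and Adamts5, an aggrecan-cleaving enzyme, at 103 and 60.9 CPM (0.67), were higher. Timp1 was lower, at 56.1 and 102 CPM (-0.76), but its ratio was -0.07 without the leading cells. The abundant inhibitors differed by less, Timp2 at 1289 and 969 CPM (0.41) and Timp3 at 687 and 1027 CPM (-0.57), and Mmp2 was at 407 and 440 CPM (-0.11).

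**Figure D4:**
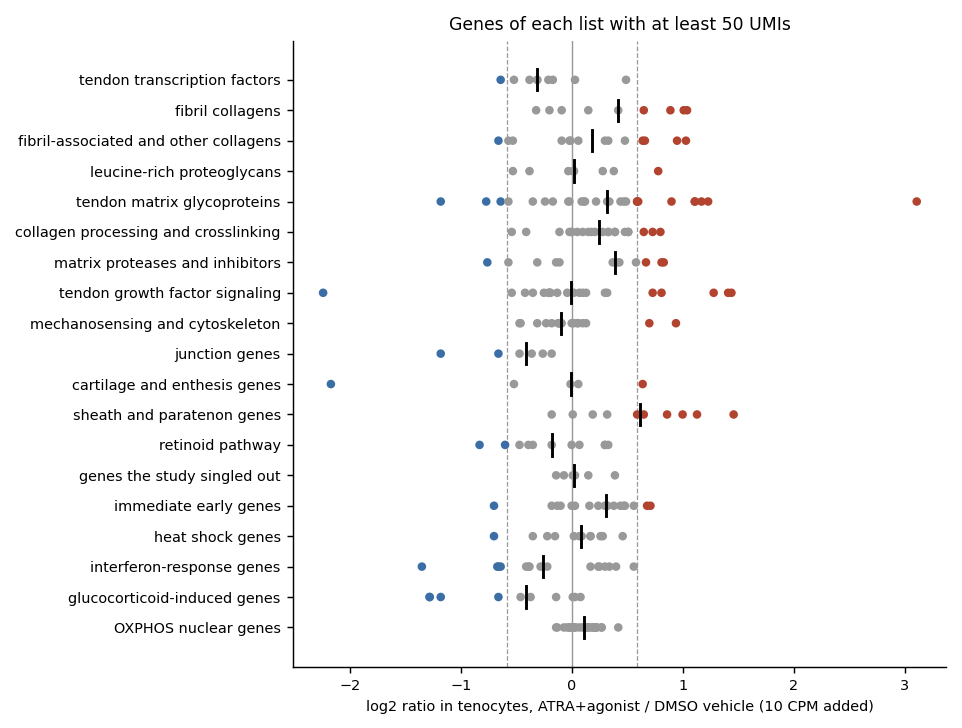
Log2 ratio in tenocytes, ATRA+agonist over DMSO vehicle with 10 CPM added, for each gene with at least 50 UMIs, grouped by list (rows). Each point is a gene and the bar marks the median of a list. Fibril collagens (median 0.42) and sheath genes (0.62) lie to the right of 0, and glucocorticoid-induced genes (-0.41), tendon transcription factors (-0.31) and interferon-response genes (-0.26) to the left.

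Among the named genes found in over 50% of tenocytes of both libraries, Ccn2 differed most. Ccn2 (ENSMUSG00000019997, chromosome 10, 24595442 to 24598683, plus strand) encodes connective tissue growth factor, a matrix-bound protein and a common readout of YAP and TGF-β activity. It was at 296 CPM (264 to 331) with ATRA+agonist and 1437 CPM (1384 to 1492) with DMSO vehicle, a log2 ratio of -2.24 (raw ratio -2.45 to -2.11). It was found in 57.1% of tenocytes with ATRA+agonist and 68.4% with DMSO vehicle although the former were deeper, and thinning to 2000 UMIs gave expected shares of 31.3% and 53.0%. Cells with at least 10 Ccn2 UMIs were 6 (4.51%) with ATRA+agonist and 59 (19.2%) with DMSO vehicle, and the highest cells held 36 and 125 UMIs. The ranges of single cells thus overlapped, and the difference was widest at the upper end, where the 90th percentile was 8.44 and 38.0 UMIs per 10000. The log2 ratio was -2.15 without the leading cells and lay between -2.28 and -1.45 under all alternatives. In the other gates the ratio was smaller, -0.71 in mesenchymal progenitors (98.4 and 168 CPM) and -0.51 in endothelial cells (15.5 and 26.4 CPM). The related Ccn1 was at 669 and 975 CPM (-0.54) and Ccn5, which encodes a family member that lacks the C-terminal domain, was higher at 66.8 and 18.9 CPM (1.41).

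Of the 22 growth factor and signaling genes, Ccn2 included, 5 were higher and 1, Ccn2, was lower, against 2.89% and 4.78% over all genes. Their median was -0.01 (-0.06 to 0.07). Wif1 (chromosome 10, 121033960 to 121100650, plus strand), a secreted Wnt antagonist, was at 291 CPM (259 to 326) and 114 CPM (99.7 to 131), a log2 ratio of 1.28 that lay between 1.17 and 1.58 under the alternatives. It was found in 35.3% and 19.2% of cells. Sfrp2, a second Wnt modulator, was at 163 and 53.5 CPM (1.44) in 10.5% and 7.17% of cells. Igf1, a growth factor for tendon and muscle, was at 406 and 241 CPM (0.73) and Angptl1 at 345 and 193 CPM (0.81). The TGF-β ligand and receptor genes differed less, with Tgfbr3 at 948 and 1093 CPM (-0.20), Tgfb2 at 116 and 105 CPM (0.13) and Tgfb3 at 94.8 and 124 CPM (-0.35). Gdf5 and Gdf7, ligands known in tendon formation, had no UMI in any tenocyte.

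None of the 9 tendon transcription factor genes with at least 50 UMIs was higher and 1 was lower, against 2.89% and 4.78% over all genes. Their median was -0.31 (-0.44 to -0.23). Scx was at 323 CPM (289 to 360) and 228 CPM (207 to 250), a log2 ratio of 0.49 that stayed between 0.46 and 0.58. Mkx was at 287 CPM (256 to 322) and 378 CPM (351 to 406), a ratio of -0.38 in the opposite direction that stayed between -0.50 and -0.26. Eya2, a transcriptional coactivator, was the lower gene, at 195 and 310 CPM (-0.64, and -0.72 to -0.47 under the alternatives). Egr1, which responds to load in tendon, was at 3173 and 3110 CPM (0.03).

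Of 19 mechanosensing and cytoskeleton genes 2 were higher and none was lower, against 2.89% and 4.78% over all genes. Their median was -0.10 (-0.11 to 0.01). Cav1, which encodes caveolin 1, was at 68.7 and 31.0 CPM (0.94, and 0.29 with cells thinned to 2000 UMIs), and at 1671 and 1647 CPM in endothelial cells. Tagln was at 88.0 and 50.4 CPM (0.70), with 97.8% of its ATRA+agonist UMIs in 5 cells and a ratio of -0.69 without the leading cells. Piezo2, a stretch-activated channel, was at 357 and 387 CPM (-0.11) and Itgb1, the β1 integrin, at 359 and 392 CPM (-0.12).

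Of 6 muscle-tendon junction genes none was higher and 2, Col22a1 and Postn, were lower, against 2.89% and 4.78% over all genes. Their median was -0.42 (-0.43 to -0.04). Both lower genes changed sign under an alternative, Postn to 0.32 and Col22a1 to 0.19. Of 5 cartilage and enthesis genes 1 was higher and 1 was lower, beside the same shares over all genes. Sox5 was higher, at 211 and 132 CPM (0.64). Spp1, which encodes osteopontin, was lower, at 58.0 and 297 CPM (-2.17), with -0.53 without the leading cells. At least 5 Spp1 UMIs were held by 3 tenocytes with ATRA+agonist and 12 with DMSO vehicle, and 8 of those 12 also held at least 5 UMIs of Ctla2a. Of 10 sheath and paratenon genes 6 were higher and none was lower, against 2.89% and 4.78% over all genes. Their median was 0.62 (0.24 to 0.70). Pi16 was at 79.3 and 22.6 CPM (1.46) in 12% and 5.54% of tenocytes, Cd34 at 90 and 35.7 CPM (1.13), Tppp3, a marker of sheath cells, at 55.1 and 22.6 CPM (1.0), Ly6a at 280 and 149 CPM (0.86), Has1 at 49.3 and 27.8 CPM (0.65) and Crip1 at 1255 and 832 CPM (0.59). S100a4 was at 642 and 636 CPM (0.01). Some of these genes fell within the fold under an alternative, with ratios as low as 0.15 for Ly6a, 0.42 for Cd34 and 0.33 for Crip1, and Tppp3 had a ratio of 0.53 without its leading cells. Pi16 stayed past the fold, with a lowest ratio of 0.62.

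Several of these sheath genes also mark mesenchymal progenitors, where their levels were higher, as with Pi16 at 480 and 301 CPM and Cd34 at 680 and 486 CPM. In tenocytes the summed level of the 10 mesenchymal progenitor markers was 810 CPM with ATRA+agonist and 661 CPM with DMSO vehicle, against 7531 and 6674 CPM in the progenitor gate. Of the 7 markers with at least 50 UMIs, 3 were higher and 1 was lower (2.89% and 4.78% over all genes). The lower gene was Cxcl14, at 53.2 and 152 CPM (-1.35, and -0.17 without the leading cells). Pdgfra, the receptor that defined the progenitor gate, was at 37.7 and 44.1 CPM in tenocytes. The part of progenitor RNA or of mixed droplets in the sheath genes, or in Col3a1, was not tested. Markers of other cells were low: all 10 immune markers had under 50 UMIs (summed level 31.0 and 34.1 CPM), the 9 endothelial markers summed to 153 and 161 CPM, the 10 muscle fiber markers to 35.8 and 82.9 CPM, the 10 Schwann and perineurial markers to 68.7 and 87.1 CPM and the 8 mural markers to 24.2 and 75 CPM. The muscle stem cell markers summed to 511 and 601 CPM, of which Chodl made 338 and 399 CPM, and Myod1 had no UMI. Chodl led tenocytes over the comparison gates, but none of these was set on muscle stem cells.

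The retinoid pathway, the target of the injected compounds, had no gene past the fold upward in tenocytes. These levels were read days after the last injection, and levels sooner after an injection were not measured. Of 26 genes 11 had at least 50 UMIs, 2 of these were lower (4.78% over all genes), and the median was -0.18 (-0.29 to -0.15). Rarb, whose promoter holds the response element shown above (ENSMUSG00000017491, chromosome 14, 16430839 to 16819156, minus strand), was at 98.7 CPM (80.5 to 120) and 132 CPM (116 to 150), a log2 ratio of -0.39 (raw ratio -0.77 to -0.09). The gene of the targeted receptor Rarg was at 69.7 and 80.3 CPM (-0.18), and Rara at 18.4 CPM in both. Among the lower genes, Aldh1a1, which encodes an enzyme that makes retinoic acid, was at 134 and 207 CPM (-0.60, and -0.76 to -0.51 under the alternatives). Dhrs3, a retinaldehyde reductase that is itself inducible by retinoic acid, was at 120 and 170 CPM (-0.47). Rarres2 was at 647 and 513 CPM (0.33), Crabp1 at 28.1 and 21 CPM (0.30), Tgm2 at 43.5 and 33.6 CPM (0.30), Rdh10 at 20.3 and 18.9 CPM (0.07) and Rdh5 at 30 and 40.9 CPM (-0.35).

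The scarcest retinoid genes gave no usable ratio at this depth. Cyp26a1, which encodes the enzyme that degrades retinoic acid and whose promoter also holds the repeat, was at 5.80 CPM (2.13 to 12.6) and 9.45 CPM (5.6 to 14.9), and Cyp26b1 at 9.67 and 12.6 CPM. Rxra, the gene of the other targeted receptor, was at 13.5 and 14.7 CPM and Rxrb at 8.71 and 16.3 CPM. Crabp2, which carries retinoic acid to its receptors, had 19 UMIs with ATRA+agonist and 3 with DMSO vehicle (18.4 and 1.57 CPM), and 94.7% of the 19 lay in 5 cells. In the progenitor gate the median of the list was -0.18 as well, and Rarb had a ratio of -0.42.

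The study singled out several genes in muscle stem cells, of which Pax7 is limited by the rule and is left out here. None of the other 6 passed the fold in tenocytes (2.89% higher and 4.78% lower over all genes), with a median of 0.02 (-0.06 to 0.03). Under an alternative, however, Id1 reached -0.73 and Mt2 -0.62. The study's own cutoff was smaller, an absolute log2 fold change above 0.15 together with a test, so the cutoffs are not alike. Id1 was at 60.0 and 58.8 CPM (0.03) and Id3 at 728 and 653 CPM (0.15), Sirt2 at 60.0 and 43.6 CPM (0.39), Rock2 at 284 and 282 CPM (0.01), and the metallothionein genes Mt1 and Mt2 at 1035 and 1086 CPM (-0.07) and at 312 and 345 CPM (-0.14). Of 29 nuclear genes of oxidative phosphorylation none passed the fold in either direction, and the median was 0.11 (0.04 to 0.13).

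Of the 10 glucocorticoid-induced genes, 4 were lower in ATRA+agonist tenocytes, none was higher and the rest stayed within the fold, with a median of -0.41 (-0.59 to -0.36). Over all genes 4.78% were lower. Zbtb16, a zinc finger factor (ENSMUSG00000066687), was at 132 CPM (110 to 156) and 334 CPM (309 to 361), a log2 ratio of -1.28. Fkbp5, which encodes a co-chaperone of the glucocorticoid receptor, was at 55.1 and 149 CPM (-1.28), and Tsc22d3, which encodes the glucocorticoid-induced leucine zipper protein, at 200 CPM (174 to 229) and 467 CPM (437 to 499), a log2 ratio of -1.18. Errfi1 was at 178 and 287 CPM (-0.66). Tsc22d3 was found in 62.4% of tenocytes with ATRA+agonist and 78.5% with DMSO vehicle, and no tenocyte with ATRA+agonist but 9 with DMSO vehicle held 10 UMIs or more. Klf9 was at 754 and 833 CPM (-0.14) and Sgk1 at 169 and 168 CPM (0.01), within the fold. The 4 lower genes were lower in the progenitor gate too (-1.17, -0.90, -1.01 and -0.61 in the same order), and in endothelial cells their ratios were -1.77, -1.11, -0.45 and -0.36.

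Interferon-response genes had a median of -0.26 (-0.32 to -0.13), with 4 of 17 lower and none higher (4.78% and 2.89% over all genes). Isg15 was at 35.8 and 107 CPM (-1.35) in 6.77% and 17.3% of cells, Iigp1, an immunity-related GTPase gene, at 393 and 619 CPM (-0.64), Igtp at 29.0 and 52.0 CPM (-0.67, and -0.41 with cells thinned to 2000 UMIs) and Gbp7 at 31.9 and 56.2 CPM (-0.66). B2m, the light chain of MHC class I, was at 601 and 783 CPM (-0.38) and Irf1 at 479 and 400 CPM (0.25). Immediate early genes, which tissue digestion also induces, had a median of 0.31 (0.23 to 0.34). Of 19 genes 2 were higher and 1 was lower, against 2.89% and 4.78% over all genes. Fos was at 4500 and 3614 CPM (0.32), Jun at 2810 and 2262 CPM (0.31), Atf3 at 588 and 357 CPM (0.71), Klf2 at 806 and 499 CPM (0.68) and Myc at 60.9 and 105 CPM (-0.70). Without the 5% of cells with the most UMIs the ratio was 0.48 for Atf3 and -0.53 for Myc. Of 12 heat shock genes only Hspb1 was lower (4.78% over all genes), at 177 and 293 CPM (-0.70), and the median was 0.08 (-0.08 to 0.12). Globin transcripts, which tenocytes do not make, were lower in ATRA+agonist tenocytes, with Hba-a1 at 48.4 and 212 CPM (-1.93) and Hba-a2 at 51.3 and 175 CPM (-1.59). All 4 globin genes with at least 50 UMIs were lower in the progenitor gate as well, with a median of -1.56. The part of free RNA and of handling in the interferon, glucocorticoid and immediate early differences was not tested.

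Of the 10 genes with the largest ratio upward, 6 kept a log2 ratio above 1 when the leading cells of each library were left out. This left out 7 cells with ATRA+agonist and 15 with DMSO vehicle per gene. For a gene found in few cells it can remove most positive cells of a library, and unevenly, so such a ratio is a description only. Igfbp3 was at 555 CPM (511 to 603) and 151 CPM (134 to 170), a log2 ratio of 1.81 and of 2.62 without the leading cells, in 22.6% and 13% of tenocytes. At least 5 of its UMIs were held by 21 cells with ATRA+agonist and 14 with DMSO vehicle. Dkk2, a Wnt antagonist gene, was at 128 and 34.6 CPM (1.63, then 1.42, and 0.63 to 1.85 under the alternatives). Spon2 was at 149 and 46.7 CPM (1.49, then 1.67) in 27.8% and 13.4% of cells. Sfrp2 (1.33 without those cells) and Ccn5 (1.14) were among the 6 as well. The rest fell below 1: Kcnq5, at 142 and 8.4 CPM (3.05, then 0.50), Gpc3, at 90 and 18.9 CPM (1.79, then 0.39), Kcnip4, at 120 and 31.0 CPM (1.67, then 0.21), and Vcan.

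Of the 10 genes with the largest ratio downward, Ccn2 and the globins apart, Trim69 and Patl2 were lower in many cells. Trim69 was at 24.2 and 130 CPM (-2.04, and -2.52 without the leading cells) in 10.5% and 33.6% of tenocytes, and Patl2 at 15.5 and 60.9 CPM (-1.48, then -1.61) in 8.27% and 20.5%. These genes overlap on opposite strands of chromosome 2, Trim69 at 122160700 to 122179027 on the plus and Patl2 at 122120108 to 122186189 on the minus strand. Whether the 2 differences are linked was not tested. Ctla2a was at 312 and 1123 CPM (-1.82, then -1.46) in 6.02% and 9.45% of cells, with 96.3% and 87.9% of its UMIs in 5 cells of each library. Efna5 was at 12.6 and 54.1 CPM (-1.50, then -1.01). Gpha2 (9.67 and 91.8 CPM, -2.37, then -0.58) and Ccl7 (15.5 and 61.9 CPM, -1.50, then -0.42), like Spp1, rested on few cells.

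The main differences were followed over the range of tenocytes. All tenocytes were divided into 4 bins by the share of their UMIs in the 6 gate genes, with limits at 1.12%, 1.65% and 2.30%, which gave 31, 31, 37 and 34 cells with ATRA+agonist and 79, 79, 73 and 76 with DMSO vehicle. The bins are ranges of a score and not types of cell. Ccn2 was lower with ATRA+agonist in each of them, with log2 ratios of -2.48, -1.96, -2.55 and -1.98 from the lowest to the highest bin, and so was Tsc22d3 (-0.89, -0.99, -1.20 and -1.66). Scx had ratios of 0.48, 0.69, 0.40 and 0.34. Col1a1 was unlike these. Its ratios were 0.50 and 0.24 in the 2 lower bins and 1.05 and 1.22 in the 2 upper bins, where its level was 2136 and 5021 CPM with ATRA+agonist against 1025 and 2148 CPM with DMSO vehicle. Sparc followed the same course (0.51, 0.11, 1.22 and 1.03). The leading cells were kept in the bins, and the highest ATRA+agonist cell held 438 Sparc UMIs, that for Col1a1 257. How far single cells shaped the upper bins was not tested. Igfbp5 was irregular, at -0.18, 2.93, 0.42 and 1.08, and so was Col3a1, at 0.31, -0.47, 2.10 and 1.15.

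**Figure D5:**
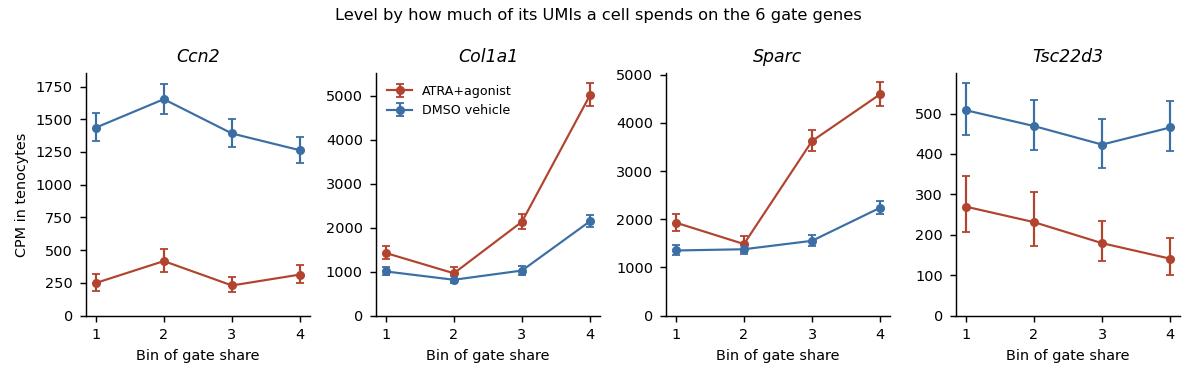
Level (CPM, points with Poisson 95% intervals) of selected genes in tenocytes by bin of the share of UMIs in the 6 gate genes, from the lowest (1) to the highest (4), in each library. Ccn2 is lower with ATRA+agonist in all 4 bins (log2 ratios -2.48 to -1.96), while Col1a1 and Sparc separate mainly in bins 3 and 4. The leading cells of each gene are included.

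Within each library some pairs of genes varied together from cell to cell and others did not. After thinning to 2000 UMIs, over 131 cells with ATRA+agonist and 296 with DMSO vehicle that share a library and hence its depth and free RNA, Spearman correlations between cells were 0.51 and 0.49 for Col1a1 with Col1a2 and 0.53 and 0.47 for Col1a1 with Sparc. Col1a1 with Dcn had 0.12 and -0.06, and Col1a1 with Igfbp5 -0.16 and -0.08. Fmod varied with Prelp (0.42 and 0.49), and Igfbp5 with Ecrg4 (0.42 and 0.38). Chodl and Comp were opposed, at -0.31 and -0.29, weak values in sparse counts.

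Cells just outside the rule showed what the Tnmd requirement left out. Cells with no Tnmd UMI but a gate sum of at least 10 numbered 65 (0.870%) with ATRA+agonist and 180 (2.39%) with DMSO vehicle, a ratio of shares of 0.364 (0.274 to 0.482). Their gate sum was low, with a median of 19.0 and 24.5. Scx was at 35.2 and 47.3 CPM in them and Fmod at 503 and 1751 CPM, far below tenocytes, while Pdgfra was at 587 and 365 CPM and Col3a1 at 2829 and 1514 CPM, far above. Ccn2 in these cells was at 353 and 654 CPM. A further 24 and 88 cells met the Tnmd and gate sum requirements but exceeded 1 UMI of Pecam1, Cdh5, Ptprc and Pax7 together.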

How the data were processed

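Single-cell RNA-Seq of mononucleated cells was measured in 2 libraries, 1 per group. Per the study's methods, quadriceps and gastrocnemius were digested, stained with propidium iodide and sorted, and the cells of 2 mice were pooled for each library (10x Genomics 3′ chemistry). Both deposited matrices hold raw counts of UMIs. Reads were aligned by the authors to mm10 with Cell Ranger, in version 7.2.0 according to the submitters' processing notes. The matrices held barcodes that the stated limits remove, so the limits were applied again. No doublet caller was part of the main result. Removing the 7.5% of barcodes with the highest doublet score was an alternative that removed 7 and 5 tenocytes.

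Tenocytes and 3 comparison gates were set by raw UMI counts with the same quality limits. Mesenchymal progenitors had at least 2 Pdgfra UMIs, no Tnmd UMI, a gate sum of at most 3 and at most 1 UMI of the 4 limited genes. Endothelial cells had at least 3 UMIs of Pecam1 and Cdh5, and immune cells at least 2 of Ptprc, each with 0 of the markers of other classes. UMIs were summed over the cells of a class in each library and divided by the class total (CPM). Exact Poisson, exact binomial (Clopper-Pearson) and conditional ratio intervals at 95% were computed in Python 3.11.15 with numpy 2.4.6, scipy 1.17.1 and pandas 2.3.3, with scikit-learn 1.9.0 for the doublet score and matplotlib 3.10.9 for figures. With 1 library per group no test was made. A gene was called past the fold at 1.5-fold with 10 CPM added and at least 50 UMIs over both libraries, leaving out gate, limited, mt- and Hbb- genes. The step was tested on simulated data. The thinned shares of Ccn2 are expected values of random draws of 2000 UMIs, and the other thinned shares come from 1 seeded draw. UMIs remove PCR copies, so counts stand for captured molecules.

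The members and the 28 gene lists (385 genes) were chosen with earlier results of these data known. The rule for named genes took the gate genes. In each list it took the 3 genes with the most UMIs and the 2 with the largest ratio. It took the genes the study singled out apart from Pax7, and retinoid genes with at least 20 UMIs. It also took the 10 largest ratios in each direction. Those genes had at least 100 UMIs and were not over 4 times more abundant in a comparison gate. Last were the 15 genes that led tenocytes over the comparison gates. Some genes that this rule takes are not reported here. Other list members named with values were picked after their values were seen. Gene positions came from GENCODE M21 (32235 of 32285 IDs matched), and promoters from RefSeq (290 of 385 list genes had an entry, 5 of the 6 gate genes). Alternatives were other gate limits, thinning, doublet removal, other UMI minimums and added CPM, scaling by the median of ratios, a mean over cells and leaving out the deepest cells. Leaving out the cells that held most UMIs of a gene (7 and 15 per gene), and using all barcodes, were chosen after seeing the data.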

Additional observations from a re-analysis of the deposited data

Results flagged for a closer look

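Igfbp3, which encodes an insulin-like growth factor binding protein, was flagged because its difference had opposite directions in related cells. Its log2 ratio of ATRA+agonist over DMSO vehicle was 1.81 in tenocytes (555 and 151 CPM) and -1.66 in mesenchymal progenitors (83.3 and 285 CPM). In tenocytes it was 2.62 without the cells that held most of its UMIs, and 1.13 to 2.62 over the alternatives. Tagln, which encodes transgelin, was flagged for the same reason, at 0.70 in tenocytes and -1.39 in mesenchymal progenitors (2.48 and 22.8 CPM), but its ratio in tenocytes was -0.69 without the leading cells. With 1 library per group neither difference between the cell classes was tested.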

How the results depend on the processing

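With 1 library per group, nothing here measures the spread between mice, and depth limits genes under 50 UMIs. The share ratio of 0.436 lay between 0.40 and 0.523 under the alternatives that kept the quality limits and was 0.683 with all barcodes. The numbers of genes past the fold, 206 higher and 341 lower, depended on the settings: 618 and 874 with cells thinned to 2000 UMIs, which leaves fewer UMIs per gene, 321 and 529 with at least 20 UMIs, 71 and 99 with at least 200 UMIs, 384 and 585 with 1 CPM added, and 378 higher without the 5% of tenocytes that held most UMIs of a gene. Of 59 named genes past the fold, 53 kept the sign of their ratio under every alternative run for them, 5 of the others changed sign and 1 reached 0, for which the cause was not tested. Changes of sign among named genes within the fold were not counted. Postn turned from -1.18 to 0.32 as a mean over cells and to 0.23 without the 5% of tenocytes with the most UMIs. Lum turned from 0.78 to -0.27 with doublets removed, -0.15 with a gate sum of at least 20 UMIs, -0.35 with gate genes at 0.3% of UMIs or more and -0.04 without the cells with the most UMIs. Gpc3 turned from 1.79 to -0.72 with doublets removed, Col22a1 from -0.66 to 0.19 without the cells with the most UMIs, and Tagln from 0.70 to -0.69 without its leading cells. Of the list medians 218 of 220 moved by less than the tolerance. Scaling by the median of ratios gave 216 and 313 genes past the fold. No paired analysis was possible because each group was 1 library.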
